A study of Rattus norvegicus with 16 samples.

Results

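The mir-30 family of the rat comprises 6 pre-miRNA hairpins, rno-mir-30a, rno-mir-30b, rno-mir-30c-1, rno-mir-30c-2, rno-mir-30d and rno-mir-30e (written below without the prefix rno, for Rattus norvegicus), which were selected by their names among the 392 hairpins with reads in these data. Each hairpin can give a small RNA from its 5′ arm (5p) and from its 3′ arm (3p), so the family holds 12 of the 711 hairpin arms that were read at least once. Small RNA was sequenced from adult males of the inbred strains BN-Lx and SHR (spontaneously hypertensive rat), for which the labels name no treatment. The tissues taken were kidney, heart, testis, spleen, liver and brain. All 6 tissues of a strain came from 1 rat, so strain and animal cannot be told apart in these 12 libraries. Livers of 4 further rats, numbered replicates 2 and 3 of each strain, brought the total to 16 libraries and allowed 3 livers per strain to be compared.

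The depth was uneven. The files listed 403453 to 1064894 reads per library in brain, liver, spleen, heart and kidney, 26880 and 29131 reads in the testis libraries, and 1167607 to 3229461 reads in the further livers. Levels are given as ocm values, that is, the reads of an arm divided by the outlier-corrected mean of its library, the mean over 595 arms of known rat miRNAs after the 3 arms with most reads were left out. An ocm value of 1 is therefore the level of an average arm. miRNAs known to mark a tissue were highest in their own tissue in both strains for 4 of 4 in brain and in testis, 3 of 3 in heart and in spleen, 1 of 1 in liver and 3 of 4 in kidney, where mir-204 was instead highest in testis.

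A miRNA guides the silencing complex to messenger RNAs that pair with its seed, bases 2 to 8 from its 5′ end. The members of the mir-30 family share the seed of their 5p arm and differ further downstream. The 5p arms are the main products and are known as abundant miRNAs of kidney, heart and other differentiated tissues, whereas the 3p arms carry other seeds and are usually regarded as the minor products.

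RefSeq (build GRCr8) listed mature sequences for 7 of the 12 arms, which are shown because the shared seed defines the family and the remaining bases set its members apart. The capitals mark the seed. The first group holds 5p sequences, with mir-384-5p, a miRNA outside the family that has the same seed.
mir-30a-5p: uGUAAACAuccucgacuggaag
mir-30c-5p: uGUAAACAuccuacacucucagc
mir-30e-5p: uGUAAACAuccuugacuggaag
mir-384-5p: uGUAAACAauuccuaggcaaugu
The second group holds 3p sequences, in which the mir-30c hairpins share a seed and mir-30a-3p has another. The 3p arms of mir-30b, mir-30d and mir-30e had no sequence among the entries, so their seeds were not compared with these.
mir-30a-3p: cUUUCAGUcggauguuugcagc
mir-30c-1-3p: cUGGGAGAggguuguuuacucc
mir-30c-2-3p: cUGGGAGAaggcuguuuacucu

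Counted from 1 at the 5′ end, mir-30a-5p and mir-30e-5p differed by the single substitution C13U. Against mir-30c-5p, mir-30a-5p differed at 5 of the aligned positions, the first being C13A. Among the 724 mature rat entries of RefSeq, the seed of the 5p arms stood in 5, namely mir-30a-5p, both copies of mir-30c-5p, mir-30e-5p and mir-384-5p. No sequence of mir-30b-5p or mir-30d-5p was among the entries used, so their seed was not checked here. Other arms without an entry could not be searched either. The mir-30c hairpins encode the same 5p molecule, and 100% of its reads were divided evenly between them. Its level is therefore given below as the sum of both, while counts of called arms take the 5p arm of each hairpin by itself. Their 3p arms differ by G9A, U12C and C22U and could be told apart.

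In GRCr8 the family lies in 3 pairs. Mir30a (5p arm at chr9:33233946-33233967, plus strand) has Mir30c2 as its nearest miRNA gene (chr9:33253695-33253717, plus strand), and Mir30e (chr5:139637504-139637525, minus strand) has Mir30c1 (chr5:139634505-139634527, minus strand). The 3p arms shown lie at chr9:33233987-33234008 (mir-30a, plus strand), chr5:139634467-139634488 (mir-30c-1, minus strand) and chr9:33253735-33253756 (mir-30c-2, plus strand), and mir-384-5p at chrX:74490939-74490961 (minus strand). The pair Mir30e and Mir30c1 lies within Nfyc, which encodes a subunit of the transcription factor NF-Y. Mir30b and Mir30d are nearest neighbours on chromosome 7 within the long non-coding RNA gene LOC102551574.

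The family was most abundant in kidney and heart. Its 12 arms together took 11.7% of all listed reads in BN-Lx kidney and 16.6% in SHR kidney, and 10.9% and 9.94% in the heart libraries of BN-Lx and SHR. In the other 4 tissues of the six-tissue set the share lay between 3.44%, in SHR brain, and 5.69%, in SHR spleen. These 8 libraries thus did not overlap with those of kidney and heart. The 4 further livers held less, 1.54% to 2.60%. In ocm units the summed family averaged 105 ± 19.96 in kidney (SD, n = 2) and 90.6 ± 6.82 in heart, against 29.0 ± 4.29 in brain. Liver, spleen and testis lay in between with 46.3 ± 6.58, 41.7 ± 13.5 and 40.8 ± 6.45, which did not differ beyond the spread between strains. These means leave out the further livers, so the place of liver rests on the livers of the six-tissue set. Without the 3 arms with most reads, the family share was 3.63% to 6.03% in the further livers. In BN-Lx and SHR brain it was 5.36% and 4.34%. In bulk tissue, fewer cells that express a miRNA and less of it per cell cannot be told apart.

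mir-30a-5p followed this order most steeply. It reached 26.4 ocm in BN-Lx kidney and 35.5 in SHR kidney, and 19.99 and 16.8 in the hearts. The next values were 8.96 and 5.62 in testis, 4.57 and 7.76 in spleen, 3.06 and 8.72 in liver, and 5.03 and 3.55 in brain. Kidney was above heart and heart above every other tissue without overlap, whereas testis, spleen, liver and brain overlapped in part. In SHR kidney only 2 arms of the whole library had more reads than mir-30a-5p, which had 29489 reads there.

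mir-30c-5p, the most read member, gave the same high tissues. It was measured at 34.5 ocm (BN-Lx) and 44.7 (SHR) in kidney and at 35.8 and 31.6 in heart. These tissues overlapped each other and were separate from the rest. The remaining values of the six-tissue set ran from 10.3 in SHR brain to 18.4 in SHR spleen. The further livers held 7.93 and 10.6 ocm in BN-Lx and 5.47 and 4.37 in SHR.

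mir-30e-5p was highest in heart, at 13.9 and 12.1 ocm in BN-Lx and SHR, and overlapped there with kidney at 8.57 and 13.1. Its lowest value was that of BN-Lx liver 1, 0.823 ocm from 326 reads, against 3.97 ocm from 1689 reads in SHR liver 1. The further livers held 3.01 and 4.67 ocm in BN-Lx and 3.27 and 2.61 in SHR. BN-Lx liver 1 thus stood below all 5 other livers.

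mir-30b-5p departed from this order and was highest in liver, with 14.2 ocm in BN-Lx liver 1 and 13.8 in SHR liver 1. Kidney gave 8.52 and 13.8, heart 9.40 and 9.32, spleen 7.34 and 11.1, and testis 9.23 and 9.13. Brain was lowest at 4.41 and 3.62. The livers lay above the other tissues only narrowly, since SHR kidney was level with SHR liver, and the further livers held 8.04 and 9.87 ocm in BN-Lx and 4.77 and 4.18 in SHR.

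mir-30d-5p was highest in heart, with 16.2 ocm in BN-Lx and 15.3 in SHR. Livers 1 (11.3 and 11.8) and kidney (11.6 and 10.7) overlapped and came next. The further livers held less, 3.03 and 6.70 ocm in BN-Lx and 5.95 and 5.80 in SHR, so this place of liver rests on livers 1. Testis held 7.41 and 5.76, brain 5.26 and 5.40, and spleen 2.51 and 7.54, where the strains were farthest apart.

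**Figure D1:**
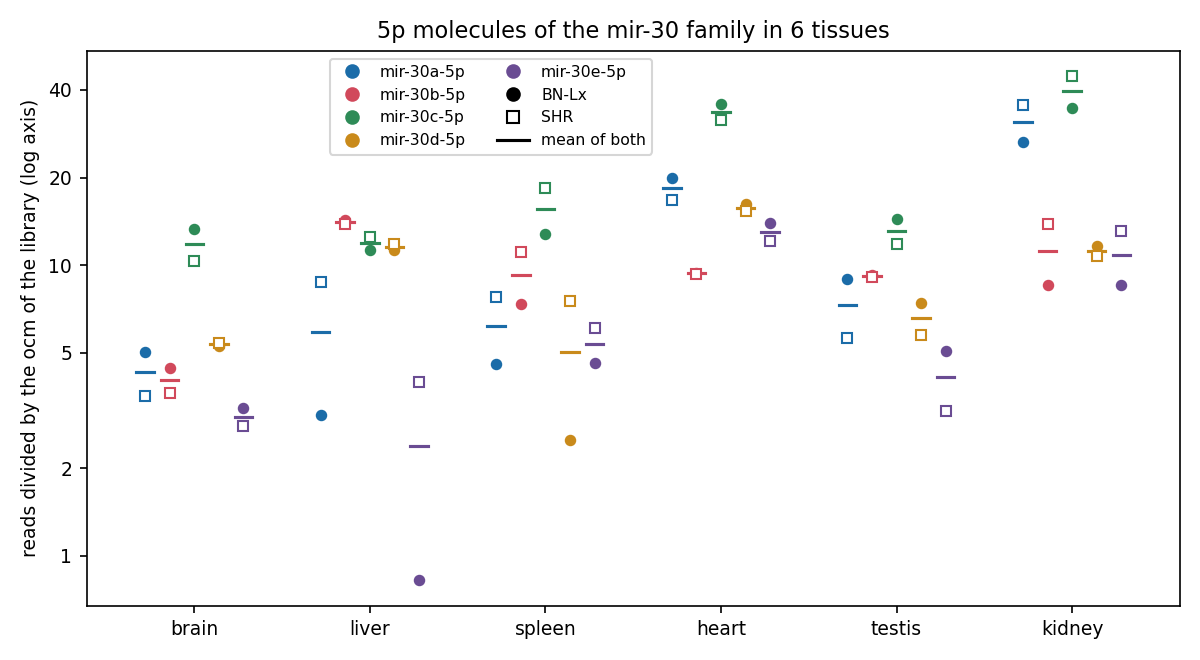
Reads of each 5p molecule of the mir-30 family divided by the ocm of the library (vertical log axis) in 6 tissues; filled circles are BN-Lx, open squares SHR, and bars the mean of both. mir-30a-5p and mir-30c-5p sit highest in kidney and heart, mir-30b-5p is highest in liver at 14.2 and 13.8, and mir-30e-5p in BN-Lx liver lies lowest at 0.823.

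The differences between tissues were tested with edgeR's quasi-likelihood test on all arms, with strain as a term and Benjamini-Hochberg adjustment. Of the 12 member arms 10 passed the filter on low counts, all 6 of the 5p arms and 4 of the 3p arms. The 5p arms of mir-30c-1 and mir-30c-2 hold the same reads, so their calls are not independent. In the counts of called arms here and below, mir-30c-5p enters once for each hairpin. Any difference between tissues was called for 6 of these 10 arms, which were the 5p arms, while 83.6% of the 458 arms tested were called, so a call alone sets no member apart. When a tissue was compared with the mean of the other 5, the direction was more informative.

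In heart, 5 member arms were higher and 0 lower, against 12.7% of all arms called higher and 6.77% called lower. They were the 5p arms of mir-30a, mir-30c-1, mir-30c-2, mir-30d and mir-30e. The largest difference was that of mir-30e-5p, 2.10 ± 0.37 (log2, SE; adjusted p = 0.00113, edgeR). In kidney, 5 member arms were higher and 0 lower, against 15.5% and 6.99% of all arms. These were the 5p arms of mir-30a, both mir-30c hairpins and mir-30e, and mir-30a-3p. mir-30a-5p was higher in kidney by 2.33 ± 0.29 (adjusted p = 0.000108, edgeR) and mir-30a-3p by 2.71 ± 0.74 (adjusted p = 0.0204, edgeR).

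The brain differed in the other direction. There, all 6 of the 5p arms were lower and 0 were higher, while brain was the tissue with most arms called higher, 38.9%, and 23.1% called lower. The member differences ran from a log2 value of -1.77 for mir-30b-5p to -1.17 for mir-30c-1-5p. Fewer were called with other scalings, 5 with RLE, 4 with the ocm and 2 with total reads, and the median difference of the 5p arms went from -1.27 to -0.61. Without SHR brain 3 member arms were called, and without SHR kidney 3 member arms were called in kidney. In liver, mir-30b-5p and mir-30d-5p were called higher, by 1.07 ± 0.22 and 0.84 ± 0.26 (adjusted p = 0.00425 and 0.0342, edgeR), and 0 members were lower, against 13.8% of all arms higher and 12.2% lower. These calls depended on the scaling: with the ocm 1 member arm was higher and 1 lower, and with total reads 0 were higher and 4 lower, with mir-30b-5p at 0.26. Neither liver call was kept when BN-Lx liver 1 was left out, with 1.04 for mir-30b-5p (adjusted p = 0.0906) and 0.86 for mir-30d-5p (adjusted p = 0.209), although the size hardly moved. The mir-30d-5p call was also lost without SHR liver 1 (0.88, adjusted p = 0.213). In spleen 0 member arms were called in either direction, against 18.3% of all arms higher and 10.9% lower. The mir-30d-5p difference in spleen was -0.67 ± 0.30 (adjusted p = 0.116, edgeR).

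In testis all 6 of the 5p arms were called lower and 0 higher, against 11.1% of all arms higher and 14% lower, but this depended on how the libraries were scaled. The median difference of all 458 arms in testis was -0.87 (log2) with TMM scaling and 0.11 with the ocm as library size, and with the ocm 0 member arms were called and mir-30b-5p stood at 0.057 in place of -0.92. Relative to the median of all arms, the 6 member 5p arms had a median of -0.52 in testis with TMM and -0.51 with the ocm. Without either testis library 2 member arms were called. The testis libraries were also the shallowest and, per the methods of the study, had 16 PCR cycles in place of 14, whose part was not tested. In the other tissues the position against the median of all arms hardly changed with the scaling: the median member 5p arm differed from it by 1.88 to 1.93 in heart, by 1.33 to 1.35 in kidney, and by -1.80 to -1.73 in brain over the 4 scalings tried.

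The study's 5-fold rule asks that an arm be 5 times higher (specific) or lower (avoidant) in 1 tissue than in every other one, in each strain. By it 0 members were specific, while 30.1% of the 697 arms in the six-tissue set were. Over the next highest tissue of the same strain, mir-30a-5p in kidney was 1.32-fold higher in BN-Lx and 2.12-fold in SHR, and mir-30a-3p was 2.46-fold and 2.48-fold higher in the 2 strains. As avoidant, 2 members were counted, mir-30b-3p and mir-30c-1-3p in testis, against 5.88% of all arms. Both had 0 reads in both testis libraries, and for mir-30b this allowed a 3p share of up to 1.03% and 0.932%, above its highest share elsewhere in the six-tissue set, 0.389%. With a minimum of 10 reads 0 members were avoidant.

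The make-up of the family by reads differed between tissues. These are shares of reads, and how well each molecule was captured during library preparation was not measured. mir-30c-5p was the most read molecule in 10 of the 12 libraries of the six-tissue set, with 31.7% to 41.3% of the family. The exceptions were the livers, where mir-30b-5p led with 34.2% in BN-Lx liver 1 and 27.2% in SHR liver 1. mir-30a-5p made up 29.0% and 29.7% of the family in kidney, and between 7.33% and 20.95% in the other tissues. In the further livers the leading molecule was mir-30b-5p with 29.7% in BN-Lx liver 2, mir-30c-5p with 28.9% in BN-Lx liver 3, and mir-30d-5p with 24.4% and 26.5% in SHR livers 2 and 3.

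**Figure D2:**
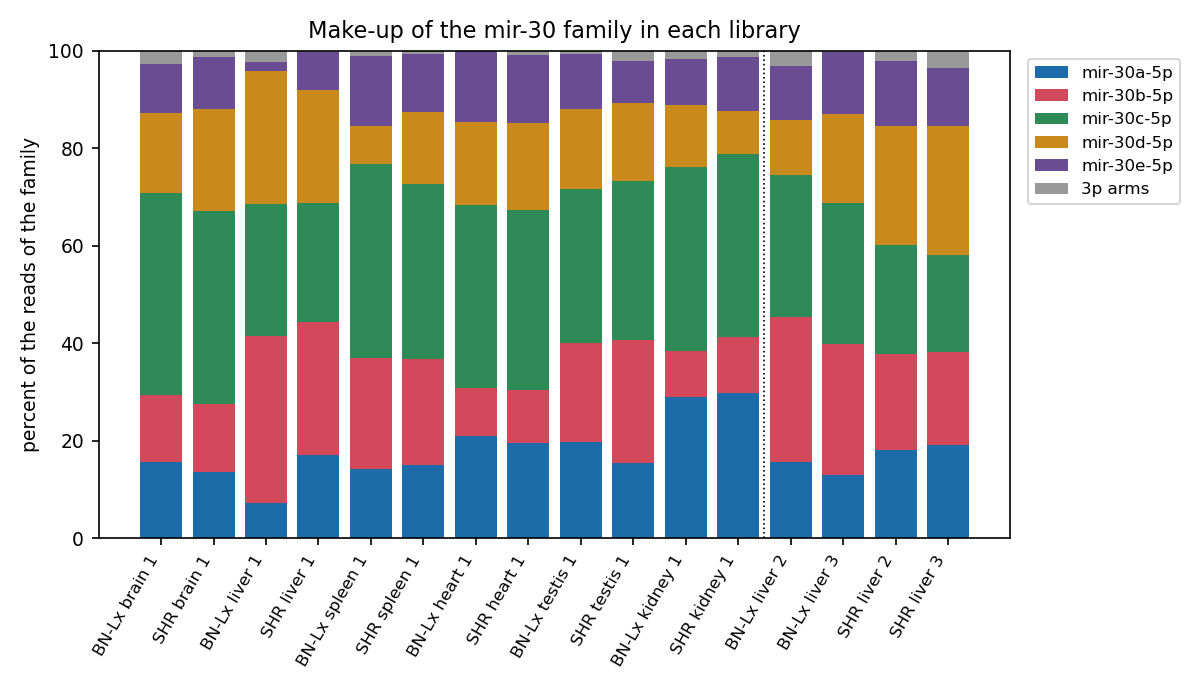
Percent of the reads of the mir-30 family (vertical axis) taken by each 5p molecule and by the 3p arms together in the 16 libraries, the 4 further livers standing to the right of the dotted line. mir-30c-5p leads in brain, spleen, heart, testis and kidney, mir-30b-5p in both livers 1, and mir-30a-5p takes 29.0% and 29.7% in the kidneys.

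Ratios between the 5p molecules do not depend on the scaling of a library. They were tested for a difference between tissues by an exact permutation test of the tissue labels within strain (one-sided on the spread between tissues, 720 arrangements, smallest p 0.00139), adjusted over the 10 pairs. A difference was found for 4 of the 10 pairs. Pairs of other arms were not tested in this way, and 83.6% of all arms differed between tissues in edgeR's F test. The count therefore does not set the family apart from other miRNAs. The ratio of mir-30a-5p to mir-30b-5p was 3.10 in BN-Lx and 2.57 in SHR kidney, 2.13 and 1.80 in heart, and 0.215 and 0.630 in liver (adjusted p = 0.0278, exact permutation test). mir-30b-5p over mir-30c-5p was 1.26 and 1.11 in liver and 0.247 and 0.310 in kidney (adjusted p = 0.0139, exact permutation test), with the strains at most 0.33 apart on the log2 scale.

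The ratio of mir-30b-5p to mir-30e-5p was 17.3 in BN-Lx liver 1 and 3.49 in SHR liver 1, and 0.995 and 1.05 in the kidneys (adjusted p = 0.0139, exact permutation test). mir-30a-5p over mir-30e-5p was 3.08 and 2.70 in kidney, 3.71 and 2.198 in liver, and 0.992 and 1.27 in spleen (adjusted p = 0.0417, exact permutation test). For mir-30a-5p over mir-30c-5p the adjusted p was 0.329 and for mir-30c-5p over mir-30e-5p 0.471 in the same exact test, and these pairs spanned 1.11 and 1.34 log2 units over the tissue means. Without the testis libraries 120 arrangements remained and 2 pairs were called, mir-30a-5p over mir-30b-5p and mir-30b-5p over mir-30e-5p, both with an adjusted p of 0.0417 in the exact permutation test.

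**Figure D3:**
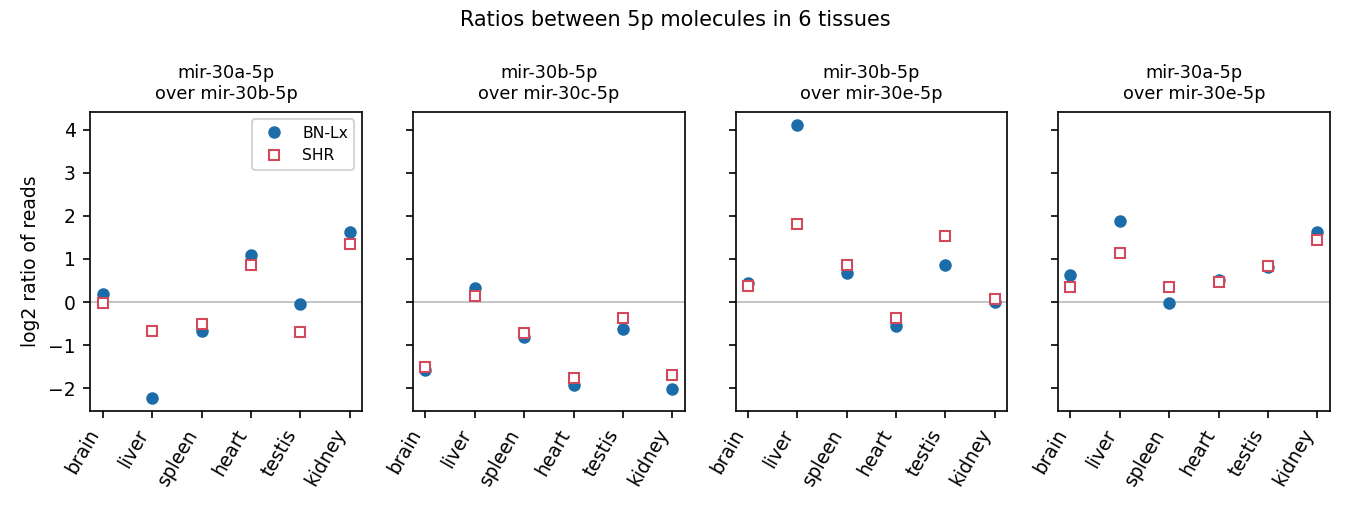
Log2 ratio of the reads of 2 members (vertical axis) in 6 tissues for the 4 pairs called in the permutation test; filled circles are BN-Lx and open squares SHR, and the grey line marks equal reads. mir-30a-5p exceeds mir-30b-5p in kidney and heart and falls below it in liver, and mir-30b-5p over mir-30e-5p peaks in BN-Lx liver.

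Over the 12 libraries, log2 ocm values of mir-30a-5p and mir-30c-5p had a Pearson correlation of 0.95, mir-30a-5p and mir-30e-5p of 0.88, and mir-30c-5p and mir-30e-5p of 0.85. For mir-30b-5p the values were 0.38 with mir-30a-5p, 0.33 with mir-30c-5p and 0.11 with mir-30e-5p. The points share their libraries, rats and scaling, and the values are a description of these libraries.

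The 3p arms were minor in the pooled six-tissue set, but not evenly so. They made up 3.24% of the reads of mir-30a and 3.71% of those of mir-30e. For mir-30b the share was 0.185%, for mir-30c-1 0.0588%, for mir-30c-2 0.233% and for mir-30d 0.00915%, which rested on 6 reads. Of the mir-30c 3p reads, which can be assigned to their hairpin, 79.9% came from mir-30c-2 (95% exact binomial interval 74.3 to 84.8). In kidney the share of mir-30c-2 was 87.9% (80.1 to 93.4), in livers 1 89.3% (71.8 to 97.7), in the further livers 64.4% (55.8 to 72.5), and in spleen 50% (26.0 to 74.0, 9 of 18 reads). Such intervals cover counting error only.

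The 3p share of mir-30a and of mir-30e varied strongly between libraries of the same tissue, and in the same libraries. Their 3p counts were also fractional in the same libraries, such as BN-Lx liver 3 with 20.5 and 11.5 reads. Fractions arise where a read matches several hairpins and counts in equal parts for each. How many reads these 3p arms shared was not tested, so the hairpins cannot be taken as independent. In BN-Lx liver 1 mir-30a-3p made up 13.1% of the reads of its hairpin (95% exact interval 11.4 to 15.02), in BN-Lx liver 2 9.88%, and in BN-Lx liver 3 0.519% (0.310 to 0.781). In SHR livers 1, 2 and 3 it made up 0.376%, 2.13% and 10.2%. The strains overlapped over this whole range. For mir-30e-3p the values were 31.8%, 9.38% and 0.296% in BN-Lx livers 1, 2 and 3, and 0.589%, 9.69% and 8.70% in SHR livers 1, 2 and 3. BN-Lx liver 3 and SHR liver 1 were thus lowest for both hairpins, and BN-Lx liver 1 highest.

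The hearts were divided in the same way. mir-30a-3p made up 0.125% of its hairpin in BN-Lx heart (11.5 reads) and 1.74% in SHR heart (217.5 reads), and mir-30e-3p 0.163% (10.5 reads) and 2.63% (238.5 reads). mir-30b-3p was rarer, with 2 reads for BN-Lx and 13 for SHR in these hearts, and 4 reads in BN-Lx liver 3 against 51 in BN-Lx liver 2. Brain, with 7.73% and 5.16% for mir-30a-3p and 11.4% and 4.06% for mir-30e-3p, and kidney, with 4.15% and 3.05% for mir-30a-3p and 3.50% and 2.03% for mir-30e-3p, differed less between the strains. Over all 16 libraries the log2 ratio of 3p to 5p reads of mir-30a and that of mir-30e had a Pearson correlation of 0.88. It is given as a description, since both come from the same libraries and their 3p arms may share reads.

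No tissue difference in the ratio of 3p to 5p reads was called for a member in limma's F test over 155 hairpins (0 of the 4 member hairpins tested, against 3.23% of all hairpins). The adjusted p was 0.609 for mir-30a, 0.594 for mir-30b, 0.275 for mir-30c-2 and 0.609 for mir-30e (limma), and at an unadjusted p of 0.05 the count was also 0. The residual SD, left after the tissue and strain terms of the fit, was 2.32 log2 units for mir-30a and 2.37 for mir-30e. The median over all hairpins was 0.87, and only 2 hairpins had a larger one than mir-30a and 1 than mir-30e. Over the 6 livers the log2 ratio of mir-30a spanned 5.28 and that of mir-30e 7.24, against a median span of 3.17 for a single hairpin, and 24 and 4 of the 151 hairpins spanned more. SHR liver 1 had 17 PCR cycles per the methods of the study, and BN-Lx heart and BN-Lx liver 3, which were also low, had 14. The part of library preparation was not tested.

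**Figure D4:**
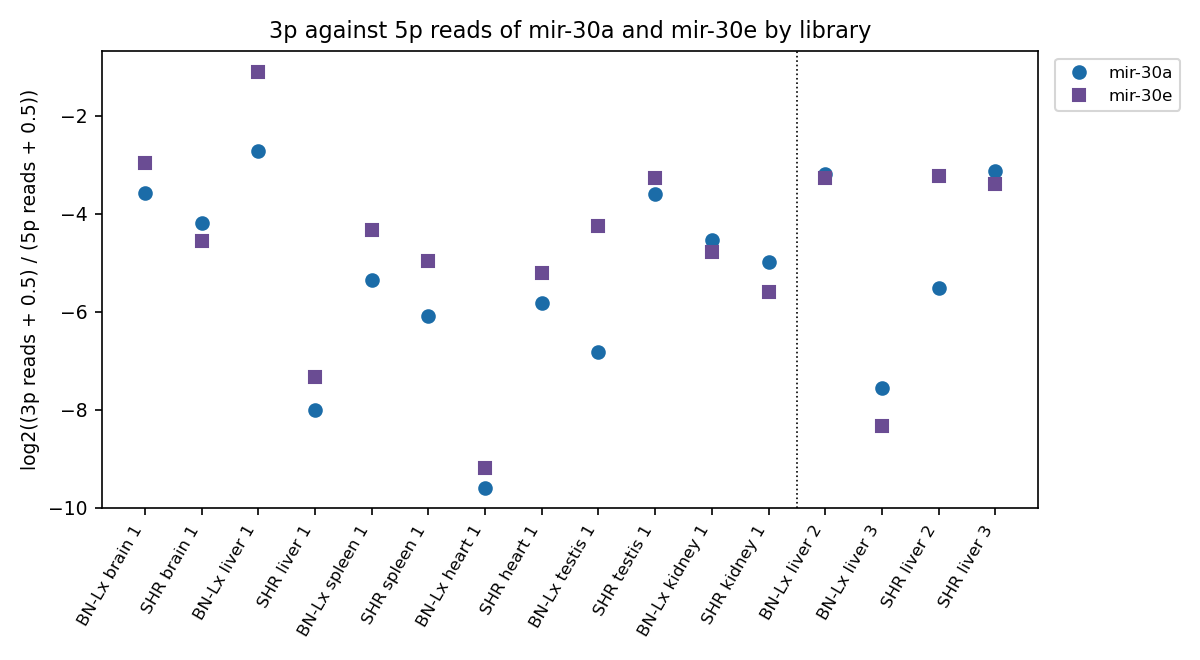
Log2 of 3p reads plus 0.5 over 5p reads plus 0.5 (vertical axis) for mir-30a (circles) and mir-30e (squares) in the 16 libraries; the further livers stand to the right of the dotted line. Both hairpins are lowest in BN-Lx heart, SHR liver 1 and BN-Lx liver 3, between -9.58 and -7.33.

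Most reads of mir-30a-5p, mir-30c-5p and mir-30e-5p began at the RefSeq mature start, and 72.2%, 50.4% and 82.0% of them ran past the annotated end. Only reads that match the hairpin perfectly were listed, so 3′ tails of other bases were not seen. In the six-tissue set 19 reads were longer than 24 nt, and longer forms were therefore hardly sampled. Reads of 24 nt made up 49.2% of mir-30c-5p, 43.8% of mir-30d-5p, 36.6% of mir-30e-5p and 33.8% of mir-30a-5p, but 0.00944% of mir-30b-5p, of which 90.6% had 22 nt. The RefSeq entries of mir-30a-5p and mir-30e-5p have 22 nt and that of mir-30c-5p has 23 nt.

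Of all listed reads 4.61% had 24 nt and 43.4% had 22 nt. The mir-30 family provided 54.3% of all 24-nt reads in the six-tissue set, and 72.4% and 76.6% of those in the BN-Lx and SHR kidney libraries. In the further livers, whose files also list reads down to 15 nt and 17484 reads above 24 nt, it provided 28.5%. The arms with most 24-nt reads in the six-tissue set were those of mir-30c-2-5p and mir-30c-1-5p, each with 13.7%, followed by mir-145-5p with 13.1% and mir-30a-5p with 10.9%.

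**Figure D5:**
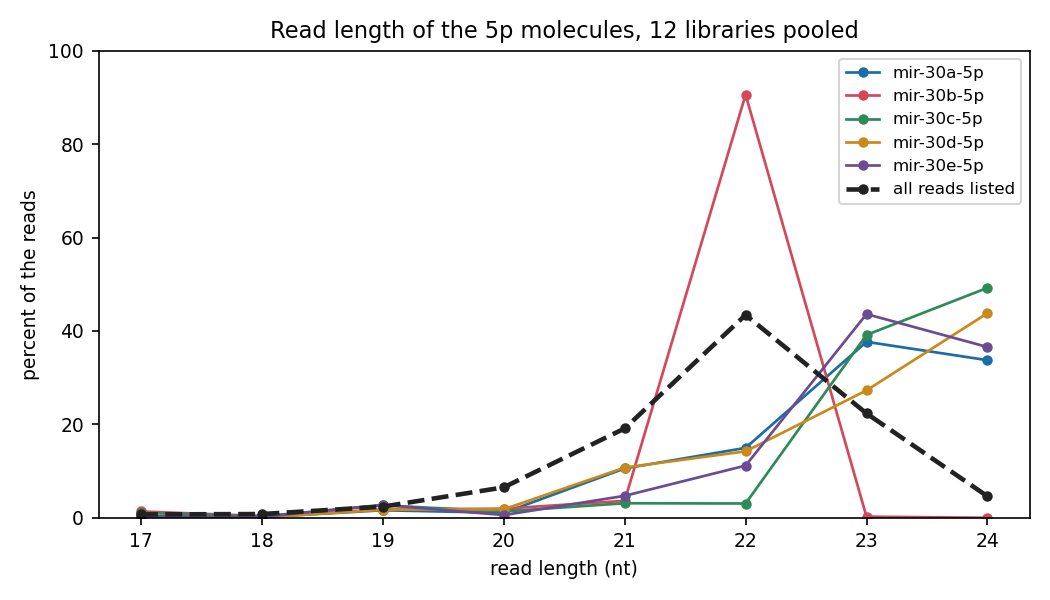
Percent of reads (vertical axis) by read length in nt (horizontal axis) for each 5p molecule and for all listed reads (dashed), 12 libraries of the six-tissue set pooled. mir-30b-5p peaks at 22 nt with 90.6%, whereas mir-30c-5p and mir-30d-5p are most frequent at 24 nt.

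The mean position of the 3′ end was compared between tissues with limma over 101 arms that had at least 10 reads in each of the 12 libraries. A difference was called for 2 of the 6 member 5p arms, against 24.8% of all arms, and these were the mir-30c hairpins, which share their reads. In testis mir-30c-1-5p ended 0.47 ± 0.06 nt earlier than in the mean of the other tissues (adjusted p = 0.00171, limma). The mean end lay at position 38.8 and 38.7 of the hairpin in the testis libraries and between 39.1 and 39.4 in the other 10. The call was lost without the testis libraries and without SHR testis alone, with 0 member arms called in each case. An earlier end in testis was called for 3 of the 6 member 5p arms, against 18.8% of all arms, among them let-7e-5p with a difference of -1.30 nt, so the trait was not particular to mir-30c. mir-30a-5p, the other member called, ended earlier in testis, by 0.24 ± 0.07 nt (adjusted p = 0.0484, limma), but its F test over all tissues gave an adjusted p of 0.122.

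The 5′ end sets the seed. In 4 of the 5 molecules 96.4% or more of the reads in every library of the six-tissue set began at the usual base. In mir-30e-5p, 5.45% to 16.9% of the reads (median 9.22%) began 1 base later, which moves the seed by 1 base. For mir-30a-5p this share was 2.08% to 3.39%, for mir-30b-5p 0.622% to 1.93%, for mir-30c-1-5p 1.20% to 2.65% and for mir-30d-5p 1.28% to 2.51%. mir-30e-5p therefore did not overlap with the others. Among 223 arms with at least 1000 reads the median share was 1.36%, and 20 arms had a larger one than mir-30e-5p. The further livers gave lower shares throughout, 1.55% to 3.03% for mir-30e-5p and 0.698% to 0.814% for mir-30a-5p, against 5.45% and 8.28% for mir-30e-5p in livers 1. Since their files also hold other read lengths, the set of libraries and the animals cannot be told apart here.

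With 3 livers per strain, SHR was compared with BN-Lx. No member arm was called in edgeR's quasi-likelihood test, which tested 270 arms and called 0% of them. At an unadjusted p of 0.05, 8 arms of all tested passed in edgeR and 9 in DESeq2, none of them a member in edgeR. The mir-30a-5p values were 3.06, 4.25 and 4.73 ocm in BN-Lx livers against 8.72, 4.42 and 4.22 in SHR livers, and the log2 difference was 0.56 ± 0.41 (adjusted p = 0.994, edgeR). For mir-30b-5p they were 14.2, 8.04 and 9.87 against 13.8, 4.77 and 4.18, which differed by -0.46 ± 0.49 (adjusted p = 0.994, edgeR). For mir-30d-5p they were 11.3, 3.03 and 6.70 against 11.8, 5.95 and 5.80. The labels do not pair the livers, and taking the replicate numbers as pairs was an inference from these same data. With such pairs as a block 0 of 270 arms were called, and the mir-30b-5p difference was -0.59 ± 0.26 (adjusted p = 0.572, edgeR). Without regard to pairs the strains overlapped for every member arm, and the exact two-sided permutation test of the ocm values gave p values from 0.4 to 1, where 0.1 is the smallest that 3 against 3 allows. Overlap was not counted for the other arms, so it says nothing particular to the family.

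The tissue pattern of the summed 5p arms was set beside those of 377 other arms with at least 10 reads on average. The highest Pearson correlations over the 12 libraries, on the log2 ocm scale, were those of mir-23b-3p (0.83), mir-499-5p (0.82), mir-130a-5p (0.80), mir-22-3p (0.78) and mir-27b-5p (0.77). mir-23b-3p held 25.6 and 27.1 ocm in BN-Lx and SHR kidney, 25.4 and 25.9 in heart, and 11.8 and 9.95 in brain. mir-499-5p, a miRNA of heart muscle, reached 0.438 and 0.572 ocm in heart and had 0 reads in both testis libraries. In kidney it held only 0.0187 and 0.0783 ocm, so it did not share the high kidney level of the family. The correlations describe libraries that share rats and scaling.

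mir-384-5p, which carries the seed of the 5p arms outside the family, gave nearly all its reads in brain. There the mean of the summed family in ocm was the lowest of the six-tissue set. Its brain libraries gave 4461 reads (3.12 ocm) for BN-Lx and 2191 reads (1.93 ocm) for SHR. Outside brain its reads ran from 0 to 14 per library. In BN-Lx brain its level was thus near that of mir-30e-5p, 3.23 ocm, and in SHR brain it lay below the 2.79 ocm of mir-30e-5p.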

How the data were processed

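Small RNA libraries were sequenced by the authors on SOLiD. Linkers were trimmed, and SHRiMP was used for mapping (genome RGSC3.4, known hairpins from miRBase). The authors deposited estimated counts, the reads per start and end position on each hairpin, perfect matches only, a read with several matching hairpins counting in equal parts for each, without normalization. The list of piRNA clusters was not used here.

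Positions were summed per arm, an arm being the side of the hairpin's middle on which a read lies. 0 libraries had identical values. Counts were rounded and tested with edgeR 4.0.16 (TMM, filterByExpr, quasi-likelihood, threshold 0.05) in R 4.3.3; ratios (pseudocount 0.5 reads, less used arm with a mean of at least 5 reads) and read ends with limma 3.58.1; DESeq2 1.42.0 was an alternative. The scripts were tested on simulated data. In the tissue tests the strains serve as the 2 replicates of a tissue, with strain as a term. The p-values of these fits thus measure the spread between these 2 rats that a constant strain difference leaves.

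Livers with the same replicate number deviated together (correlations of 0.58, 0.55 and 0.27 over 283 arms between strains), so the numbers were taken to pair them, and the pairing rests on the data alone.

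Named non-members were the arms with the 5p seed and the 5 arms most correlated with the summed 5p arms. Members, lists and tests were chosen with earlier results of these data known. RefSeq sequences and gene neighbours are from GRCr8, another build than that of the study.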

Additional observations from a re-analysis of the deposited data

How the results depend on the processing

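Each member call in a single tissue was recomputed under the alternatives, 518 refits of 24 calls in all. The mir-30c 5p arms, which hold the same reads, enter these numbers as separate calls. The direction and the call were kept in 446, the call was lost in 70 and the sign turned in 2, both of mir-30b-5p in testis, which became 0.057 with the ocm as library size and 0.11 with total reads. The 5 heart calls were kept in all 109 refits. Against 6 member arms called in testis, 3 were called with RLE, 0 with the ocm, 0 with total reads and 3 with DESeq2. Against 6 in brain, 2 were called with total reads and 4 with the ocm. Against 2 in liver, 4 were called with total reads (all 4 lower), with all 16 libraries and without the testis libraries. Against 5 in kidney, 3 were called with DESeq2 and with all 16 libraries, and against 0 in spleen, 1 with DESeq2. The cause was not tested. Leaving out 1 library gave 6 to 7 arms in the F test, 3 to 6 in brain (3 without SHR brain), 0 to 3 in liver (0 without BN-Lx liver 1, 1 without BN-Lx brain, SHR brain or SHR testis, 3 without SHR liver 1), 0 to 1 in spleen (1 without SHR spleen), 5 to 6 in heart, 2 to 6 in testis (2 without either testis library) and 3 to 6 in kidney (3 without SHR kidney).

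The split of all calls moved with the scaling: in testis 44.3% of the calls were higher with TMM, 57.02% with RLE, 82.0% with the ocm and 83.5% with total reads, in heart 65.2%, 54.2%, 41.5% and 41.3%, in kidney 68.9%, 52.0%, 56.8% and 67.3%, in spleen 62.7%, 55.0%, 50.4% and 49.6%, in liver 52.9%, 52.9%, 40% and 25.2%, and in brain 62.7%, 68.3%, 69.2% and 75.1%.

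By the 5-fold rule 4 members were counted in BN-Lx alone, 4 in SHR alone and 0 with at least 10 reads, against 2. For read ends 0 member arms were called by the share at the most used end and without the testis libraries, and 0 to 2 with 1 library left out. Without the testis libraries 2 pairs of members were called. Without the 3 arms with most reads the mean family share rose to 4.85% in brain, 7.69% in liver, 7.02% in spleen, 15.3% in heart and 6.32% in testis, as fewer reads remain in the total. In kidney it was 14.7%, below heart, since mir-30a-5p is itself among the 3 arms in SHR kidney and was left out there. For the ratio of arms and the livers the count stayed at 0 in every refit, from 0 to 0 with 1 library left out. With the replicate block, which pairs the livers, 0 member arms and 0 of 270 arms were called and 22 arms had an unadjusted p under 0.05, against 8 without it; it changed no other call. At the depth of the testis libraries 3p shares near those of mir-30b elsewhere could not be detected.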
